A study of Arabidopsis thaliana with 8 samples.

Results

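The effect of the *mips1* mutation was measured in plants that already carried a mutation in *BIG*, by comparing the *mips1 somi2* double mutant with the *somi2* single mutant. The comparison uses 4 of the 8 messenger RNA libraries of the series, 2 of each genotype, and all genes of the count table. The *mips1 somi2* plants carry *mips1*, a T-DNA insertion in *MIPS1*, together with *somi2*, and the *somi2* plants carry *somi2* alone. *somi2* is a chemically induced single-base deletion that brings an early stop codon into *BIG*. The labels call this line by the name of the gene alone, and the allele is known from the paper's text. Both groups are in the Col-0 ecotype, and each line is 1 allele. By the paper, *somi2* arose by mutagenesis of *mips1*, and the *somi2* line came from successive crosses of the double mutant with Col-0. Both groups may thus also differ in other induced mutations left in either line. Effects of such mutations cannot be told apart from those of *mips1* in this comparison. Wild-type Col-0 and *mips1*, with 2 libraries each, serve below as the same contrast with functional *BIG*. By the labels, all plants were grown for 1 week on plates under long days (LD, 16 h of light), for 2 weeks in soil under short days (8 h of light) and for 5 days under LD again. The paper's RNA-seq methods give other lengths for the short-day and LD periods. RNA came from pooled rosette leaves of several plants, and nothing in the labels says that the libraries of a genotype came from separate cultures, so p-values measure the spread between these libraries.

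*MIPS1* encodes the main leaf form of myo-inositol-1-phosphate synthase, which makes the precursor of myo-inositol from glucose 6-phosphate. Myo-inositol is used for phosphatidylinositol, inositol phosphates, galactinol and raffinose, and cell wall precursors. The *mips1* mutant forms lesions and activates salicylic acid (SA) defence under LD, and *somi2* was isolated as a suppressor of these lesions. *BIG* encodes a very large protein that has been linked to auxin transport, light and hormone responses and defence.

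The libraries held 64466462 to 71671018 counts in *somi2* and 61436773 to 75229688 in *mips1 somi2*, within 50123257 to 104501879 for the series. Expression is given as CPM, the counts of a gene scaled to a library of standard depth by the TMM method. A count of 0 allows a level of up to 0.0363 to 0.0454 CPM in these 4 libraries (3 counts), for counting error only. The log2 CPM values of replicate libraries correlated across genes with r = 0.996 in both groups and 0.989 in Col-0, whose libraries stood furthest apart. The top 10 genes held 8.44% and 8.48% of a *somi2* library and 7.003% and 6.87% of a *mips1 somi2* library. Markers of leaf mesophyll were all detected, with a summed level of 29945 and 30621 CPM in *somi2* and 23901 and 25918 CPM in *mips1 somi2*. The summed level of 8 seed storage markers was at most 0.458 CPM and that of 4 root markers at most 0.458 CPM in any of the 4 libraries, and *CRU3*, *SESA3* and *SESA4* had 0 counts in all of them. Flower markers summed to 3.42 and 3.85 CPM in *somi2* and 2.96 and 3.27 CPM in *mips1 somi2*. Single flower markers differed more than these sums. Of 6 tested as described below, 1 was higher and 2 were lower in *mips1 somi2*, with log2 fold changes from -4.61 to 3.26. Shoot meristem markers summed to 7.39 and 8.53 CPM in *somi2* and to 8.34 and 8.89 CPM in *mips1 somi2*.

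*MIPS1* transcripts (AT4G39800, chromosome 4 from 18469255 to 18472048, TAIR10) stood at 104 and 94.7 CPM in *somi2* and 9.85 and 10.8 CPM in *mips1 somi2*. They were lower in both double mutant libraries (log2 fold change -3.27, standard error 0.12, edgeR adjusted p = 1.69e-08), as they were in *mips1* against Col-0 (-4.57). *MIPS2* and *MIPS3*, which encode the other synthases, did not pass the test, with log2 fold changes of 0.27 and -0.01. *BIG* (AT3G02260, chromosome 3 from 430877 to 448680) stood at 57.2 and 62.1 CPM in *somi2* and 93.4 and 89.9 CPM in *mips1 somi2*. It was higher in the double mutant (log2 fold change 0.62, standard error 0.081, edgeR adjusted p = 1.55e-04), and in *mips1* it was also higher than in Col-0 (log2 fold change 0.77). The interaction, which is the difference between both *mips1* effects, was -0.15 for *BIG* and was not past the threshold (edgeR adjusted p = 0.271). In the lines with intact *BIG* it stood at 113 and 132 CPM in Col-0 and 205 and 212 CPM in *mips1*. Both *somi2* libraries were thus below both Col-0 libraries, and both *mips1 somi2* libraries below both *mips1* libraries, differences that were not tested.

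Between *mips1 somi2* and *somi2*, edgeR's quasi-likelihood test put 2023 genes up (8.46% of the 23916 tested) and 2583 genes down (10.8%), with Benjamini-Hochberg adjustment and a threshold of 0.05. These 4606 genes are called differentially expressed (DEGs) below and are 19.3% of the genes tested. Most changes were small, with a median absolute log2 fold change of 0.43 among DEGs. Changes of 1 or more on the log2 scale were found for 856 DEGs (3.58%), 534 of them up-regulated (2.23%) and 322 down-regulated (1.35%). In *mips1* against Col-0 the same test gave 8602 genes up (36.0%) and 8877 down (37.1%), together 73.1% of those tested. The interaction called 62.1% of genes, 30.8% as higher and 31.2% as lower in the *somi2* background. Groups did not overlap in CPM for 65.7% of all genes in the double mutant comparison, so a gap between 2 and 2 libraries alone is common. With library size alone as the scaling, the median log2 fold change of all genes was 0.10 in place of -0.0045, and 4172 genes were up-regulated against 1476 down-regulated (73.9% higher among calls, compared with 43.9%). The number of DEGs also moved with single libraries. It was 2089 without *somi2* replicate 1, 2335 without *somi2* replicate 2, 2466 without *mips1 somi2* replicate 1 and 2720 without *mips1 somi2* replicate 2. It was 7342 and 7351 without Col-0 replicate 1 and 2. The Col-0 libraries, which stood furthest apart, enter the estimate of the spread that the 8 libraries share.

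Apart from genes with hardly any counts in *somi2*, the gene with the largest rise was *UGT76B1*. *UGT76B1* (AT3G11340, chromosome 3 from 3556554 to 3558361), which encodes a glucosyltransferase acting on N-hydroxypipecolic acid, isoleucic acid and SA, stood at 0.2898 and 0.317 CPM in *somi2* and 18.7 and 15.9 CPM in *mips1 somi2* (log2 fold change 5.83, standard error 0.15, edgeR adjusted p = 1.97e-10). *YLS9* (AT2G35980), also known as *NHL10*, a marker of defence and senescence, rose from 0.193 and 0.106 CPM to 9.51 and 7.70 CPM (log2 fold change 5.82, standard error 0.19, edgeR adjusted p = 1.07e-09). *PAD3* (AT3G26830, chromosome 3 from 9887917 to 9889791), the last enzyme of camalexin synthesis, stood at 1.02 and 1.088 CPM in *somi2* and 52.1 and 52.7 CPM in *mips1 somi2* (log2 fold change 5.63, standard error 0.13, edgeR adjusted p = 1.52e-10). Each of these genes was at about 1 CPM or less in both *somi2* libraries and many times higher in both double mutant libraries. They were picked for large changes without overlap, so this gap is a description. *AOX1D*, a mitochondrial alternative oxidase, stood at 0.193 and 0.0907 CPM in *somi2* and 6.51 and 5.96 CPM in *mips1 somi2* (log2 fold change 5.42, edgeR adjusted p = 9.78e-10). *FMO1*, the monooxygenase that makes N-hydroxypipecolic acid, stood at 0.469 and 0.317 CPM in *somi2* and 12.4 and 13.1 CPM in *mips1 somi2* (log2 fold change 5.00, edgeR adjusted p = 3.02e-08). *SBT3.3*, a subtilase linked to defence priming, stood at 0.0828 and 0.242 CPM in *somi2* and 5.004 and 4.33 CPM in *mips1 somi2* (log2 fold change 4.86, edgeR adjusted p = 2.88e-08). The glutathione transferase gene AT5G44990 had 4 counts in *somi2* and 210 in *mips1 somi2*, a ratio of 48.5 (95% exact counting interval 18.6 to 179). AT1G33950, of the avirulence-induced (AIG1) family, had 4 counts in *somi2* and 270 in *mips1 somi2*, a ratio of 62.3 (95% exact counting interval 24.1 to 230).

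**Figure D1:**
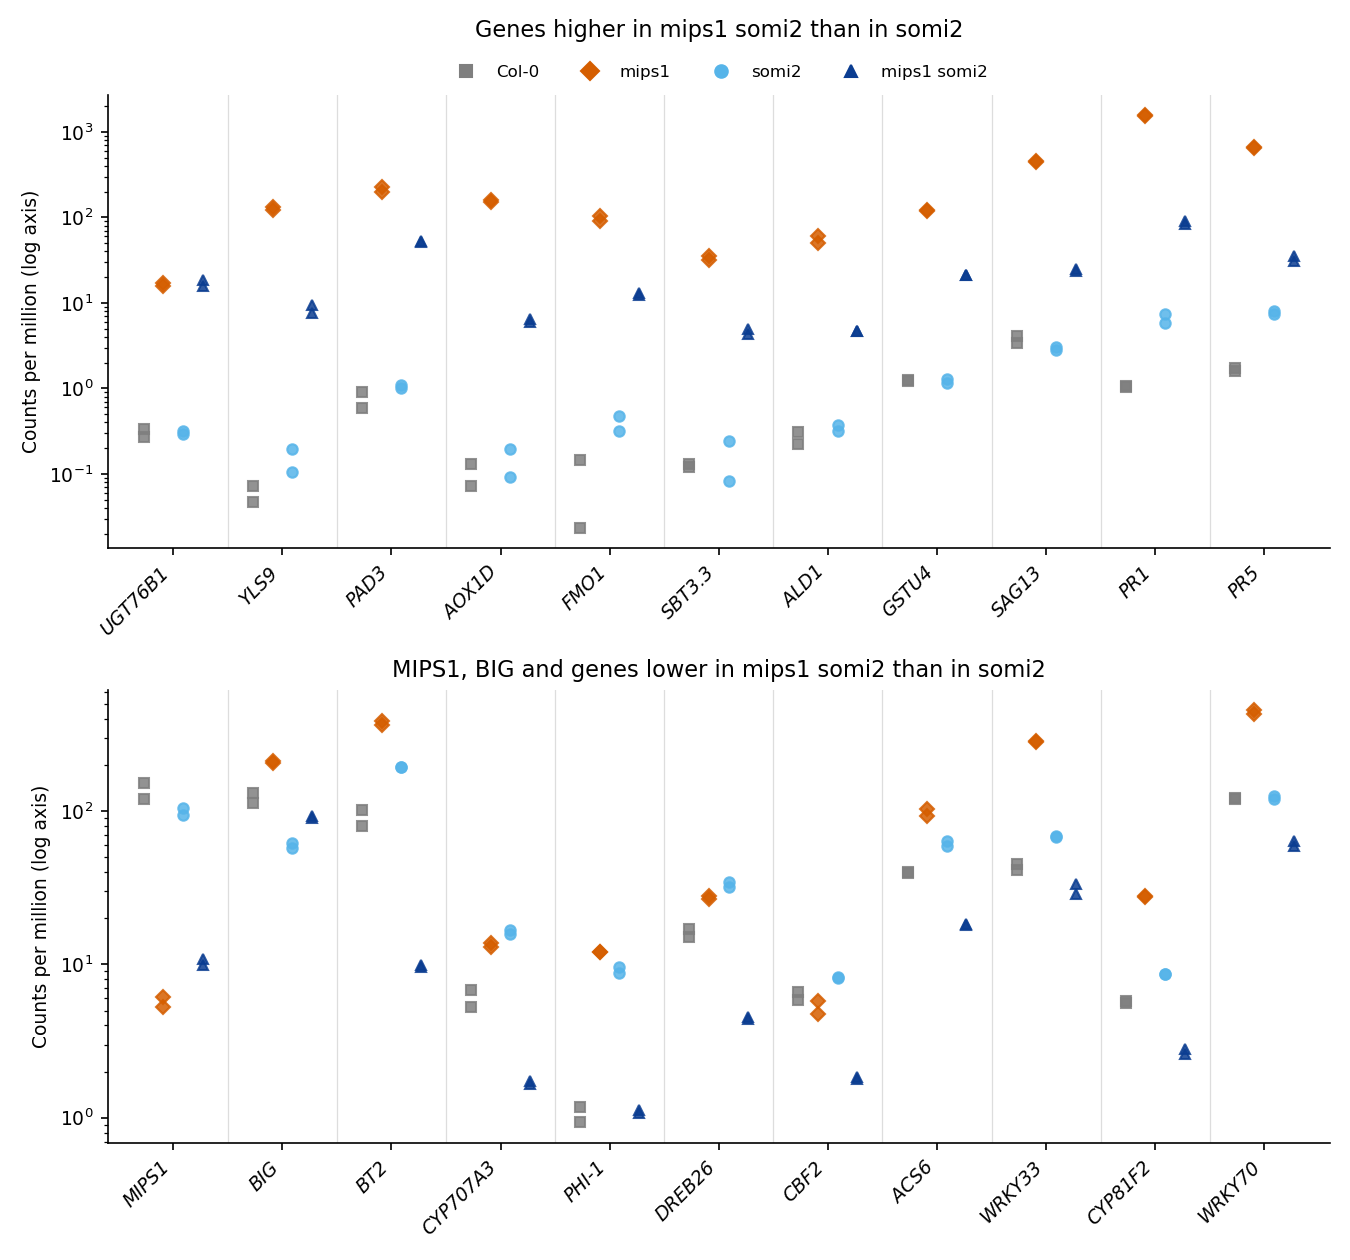
Expression in each of the 8 libraries as CPM on a log axis, with 2 points per genotype and no error bars; the upper panel holds genes higher in *mips1 somi2* than in *somi2*, and the lower panel holds *MIPS1*, *BIG* and genes lower in it. In the upper panel *UGT76B1* stood at 15.9 and 18.7 CPM in *mips1 somi2*, near its *mips1* level, while *PR1* (84.3 and 91.6 CPM) stood below its *mips1* level, and in the lower panel *BT2* stood at 9.67 and 9.86 CPM in *mips1 somi2*, under all other libraries.

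The genes that fell most included transcriptional regulators and a hormone-degrading enzyme. *BT2* (AT3G48360, chromosome 3 from 17907767 to 17910738), a BTB and TAZ domain protein that responds to sugar, nitrogen and hormones, stood at 194 and 194 CPM in *somi2* and 9.67 and 9.86 CPM in *mips1 somi2* (log2 fold change -4.31, standard error 0.11, edgeR adjusted p = 1.98e-10). *CYP707A3* (AT5G45340), an abscisic acid 8'-hydroxylase, stood at 15.7 and 16.9 CPM in *somi2* and 1.65 and 1.73 CPM in *mips1 somi2* (log2 fold change -3.27, standard error 0.12, edgeR adjusted p = 2.77e-09). *PHI-1*, a phosphate-responsive family gene, stood at 9.65 and 8.77 CPM in *somi2* and 1.13 and 1.08 CPM in *mips1 somi2* (log2 fold change -3.06, edgeR adjusted p = 4.61e-09). In all of these the 2 libraries of each group lay close together and the groups were far apart. Their selection also required a large change and groups without overlap. The AP2/ERF transcription factor gene *DREB26* stood at 34.2 and 31.7 CPM in *somi2* and 4.56 and 4.38 CPM in *mips1 somi2* (log2 fold change -2.88, edgeR adjusted p = 2.82e-10). Another gene of that class, AT5G51190, stood at 11.3 and 11.7 CPM in *somi2* and 1.39 and 1.66 CPM in *mips1 somi2* (log2 fold change -2.92, edgeR adjusted p = 2.82e-09). AT2G20670, of unknown function, stood at 169.9 and 168 CPM in *somi2* and 24.2 and 21.7 CPM in *mips1 somi2* (log2 fold change -2.88, edgeR adjusted p = 2.12e-10). *BT2*, *CYP707A3*, *PHI-1*, *DREB26* and AT5G51190 were higher in *mips1* than in Col-0, with log2 fold changes of 2.04, 1.17, 3.47, 0.76 and 1.02.

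A few transcripts were detected in one group and hardly or not in the other. AT1G64795, an uncharacterized gene, had 0 counts in both *somi2* libraries and 991 and 786 in *mips1 somi2*. It was at least 547-fold higher, against a floor of 3 counts over the *somi2* group. It was also at 0 in Col-0 and at a mean of 14.5 CPM in *mips1*. AT2G10960 had 1 count in *somi2* and 217 in *mips1 somi2*, a ratio of 200.3 (95% exact counting interval 35.6 to 7947), but stood at a mean of 0.00699 CPM in *mips1*. In the other direction, AT5G01080, a beta-galactosidase-related gene, had 2272 counts in *somi2* and 1 in *mips1 somi2*, a ratio of 2462 (95% exact counting interval 441 to 97273), and was at 0 in Col-0. AT1G27565 had 434 counts in *somi2* and 3 in *mips1 somi2*, a ratio of 157 (95% exact counting interval 53.3 to 763), and was also at 0 in *mips1*. Genes with 0 counts in both *somi2* libraries and at least 10 in each double mutant library numbered 9. They include the neighbouring genes AT3G55900 and AT3G55910, which were at least 10.8-fold and 58.5-fold higher. The disease resistance gene AT4G11340, at least 8.92-fold higher, and *WRKY59*, at least 7.69-fold higher, are also among them. All of these were also up-regulated in *mips1* against Col-0. AT4G15590 (89 and 58 counts in *mips1 somi2*) and AT2G15550 (19 and 17 counts) were not, with means of 0.00455 and 0 CPM in *mips1*. No gene had 0 counts in both double mutant libraries and at least 10 in each *somi2* library.

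DEGs were spread over the genome. They made up 18.5% to 20.3% of the tested genes on each of the 5 chromosomes, 20.1% of the 184 genes within 500 kb of *MIPS1* and 16.9% of the 278 genes within 500 kb of *BIG*. Of 101 tested plastid genes, 5 were called (4.95%, against 19.3% of all genes), and they were up-regulated.

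Promoters are shown for 6 of the genes that moved, 3 up-regulated and 3 down-regulated, because they hold matches to a W-box or an evening element, and they were chosen after their values were seen. The W-box (TTGACC or TTGACT, on either strand) is bound by WRKY factors, and the evening element (AAAATATCT, on either strand) by clock MYB factors. The sequences are the 250 bases before the RefSeq start of each gene on TAIR10.1, written 5′ to 3′ on the strand of the gene, with the motif in capitals. Up-regulated are *YLS9* (chr2:15110242-15110491, plus strand), AT5G44990 (chr5:18162878-18163127, plus strand) and the glutathione transferase gene *GSTF7* (chr1:659981-660230, minus strand).
YLS9: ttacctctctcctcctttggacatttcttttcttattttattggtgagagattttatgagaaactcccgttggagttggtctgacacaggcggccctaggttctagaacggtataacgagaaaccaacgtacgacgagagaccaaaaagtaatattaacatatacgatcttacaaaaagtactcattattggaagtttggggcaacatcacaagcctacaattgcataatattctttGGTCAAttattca
AT5G44990: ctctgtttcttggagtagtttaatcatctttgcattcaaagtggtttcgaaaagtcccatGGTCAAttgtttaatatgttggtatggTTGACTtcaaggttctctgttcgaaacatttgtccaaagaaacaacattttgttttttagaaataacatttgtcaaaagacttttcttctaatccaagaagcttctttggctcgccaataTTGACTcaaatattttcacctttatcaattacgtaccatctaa
GSTF7: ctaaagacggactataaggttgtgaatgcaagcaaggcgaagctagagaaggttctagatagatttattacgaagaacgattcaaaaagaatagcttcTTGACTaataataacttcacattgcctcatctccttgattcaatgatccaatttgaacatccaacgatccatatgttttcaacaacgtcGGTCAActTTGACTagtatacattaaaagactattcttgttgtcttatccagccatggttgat
Down-regulated are *WRKY33* (chr2:16107985-16108234, plus strand) and *CYP707A3* (chr5:18371022-18371271, minus strand), with the W-box in capitals, and *FKF1* (chr1:25508389-25508638, plus strand), with the evening element in capitals.
WRKY33: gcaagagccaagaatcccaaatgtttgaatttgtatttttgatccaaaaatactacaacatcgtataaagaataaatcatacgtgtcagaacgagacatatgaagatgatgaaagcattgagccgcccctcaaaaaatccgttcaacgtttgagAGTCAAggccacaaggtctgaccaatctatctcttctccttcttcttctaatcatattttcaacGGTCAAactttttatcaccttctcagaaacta
CYP707A3: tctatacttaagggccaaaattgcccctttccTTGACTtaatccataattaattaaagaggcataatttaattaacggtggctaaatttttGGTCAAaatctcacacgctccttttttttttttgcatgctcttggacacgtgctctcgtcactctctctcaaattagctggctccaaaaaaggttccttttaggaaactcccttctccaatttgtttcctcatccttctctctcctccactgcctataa
FKF1: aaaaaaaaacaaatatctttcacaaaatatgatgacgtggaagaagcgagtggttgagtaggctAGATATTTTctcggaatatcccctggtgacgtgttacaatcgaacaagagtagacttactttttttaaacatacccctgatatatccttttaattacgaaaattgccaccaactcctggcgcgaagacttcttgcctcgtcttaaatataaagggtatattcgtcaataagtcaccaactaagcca

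Over promoters of 300 bases (250 before to 50 after the start), which could be read for 23589 tested genes, a W-box stood in 32.1% of all, 36.3% of the up-regulated and 32.8% of the down-regulated genes. Among DEGs that changed by 1 or more on the log2 scale the shares were 41.2% and 36.8%. The evening element stood in 2.77% of all, 3.29% of up-regulated and 4.44% of down-regulated genes. The G-box (CACGTG) stood in 8.07%, 10.97% and 9.01%, and the as-1 core (TGACGT) in 9.28%, 10.5% and 10.6%. The site II element (TGGGCC or TGGGCT), found in promoters of growth and ribosomal genes, was rarer among DEGs of both directions (17.4% and 18.99%) than among all genes (23.6%). The P1BS motif (GNATATNC), bound by phosphate starvation regulators, stood in 6.17% of all, 6.78% of up-regulated and 7.35% of down-regulated genes. The GCC-box (GCCGCC) stood in 2.798%, 2.34% and 2.56%, and the drought element (ACCGAC) in 6.03%, 6.98% and 5.51%. *UGT76B1*, *PAD3*, *FMO1*, *PR1* and *BT2* hold no W-box in this window. A match of letters is not a binding site, and these shares were not tested.

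The remaining results follow 30 gene lists. Their counts stand beside 8.46% of all tested genes up-regulated and 10.8% down-regulated. Listed genes with too few counts were not tested, such as *IRT1* and *NAS2* of the iron list. Where a list had 0 members called in one direction by edgeR, DESeq2 also called 0 in it. In that direction an unadjusted p under 0.05 was reached by 2 aliphatic glucosinolate genes (up) and 1 (down), 1 senescence gene (down) and 1 sphingolipid gene (up), and by 0 genes of the other such lists.

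Genes of SA and systemic resistance moved in both directions. Of 31 tested, 13 were up-regulated, 10 were down-regulated, and the median log2 fold change was 0.03, against -0.0045 for all genes. *PR1*, the classic SA marker, stood at 7.37 and 5.85 CPM in *somi2* and 91.6 and 84.3 CPM in *mips1 somi2* (log2 fold change 3.73, standard error 0.10, edgeR adjusted p = 2.56e-10). *PR5*, a thaumatin-like protein of the same response, stood at 8.05 and 7.32 CPM in *somi2* and 35.1 and 31.3 CPM in *mips1 somi2* (log2 fold change 2.11, edgeR adjusted p = 3.91e-09). *ALD1*, which acts before *FMO1* in the synthesis of N-hydroxypipecolic acid, stood at 0.373 and 0.317 CPM in *somi2* and 4.64 and 4.63 CPM in *mips1 somi2* (log2 fold change 3.74, edgeR adjusted p = 7.47e-09). *EDS16* (*ICS1*), the isochorismate synthase that makes most pathogen-induced SA, stood at 11.6 and 11.2 CPM in *somi2* and 20.8 and 20.6 CPM in *mips1 somi2* (log2 fold change 0.86, edgeR adjusted p = 9.97e-06). The members that rose most were outputs and enzymes, and several regulators fell. *WRKY70* stood at 125 and 119 CPM in *somi2* and 59.2 and 64.02 CPM in *mips1 somi2* (log2 fold change -0.99, edgeR adjusted p = 6.25e-07). *ACD6*, an ankyrin protein that promotes SA defence, stood at 189 and 179 CPM in *somi2* and 90.2 and 87.1 CPM in *mips1 somi2* (log2 fold change -1.05, edgeR adjusted p = 4.84e-07). *UGT74F2*, an SA glucosyltransferase, stood at 41.2 and 39.4 CPM in *somi2* and 20.04 and 18.6 CPM in *mips1 somi2* (log2 fold change -1.06, edgeR adjusted p = 4.03e-07). The SA receptor genes *NPR1*, *NPR3* and *NPR4* were lower, with log2 fold changes of -0.22, -0.62 and -0.31, and *EDS1* (-0.03) and *PAD4* (-0.10) did not pass the test. In *mips1* against Col-0, 30 of the 31 were up-regulated with a median of 2.73, and the interaction called 29 of them lower in the *somi2* background. Without *somi2* replicate 2, 6 members were down-regulated.

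Pattern-triggered immunity genes, which carry signals from cell surface receptors, showed no common direction. Of 18, 3 were up-regulated and 6 down-regulated. *FRK1*, a marker of flagellin responses, stood at 0.373 and 0.197 CPM in *somi2* and 1.82 and 1.58 CPM in *mips1 somi2* (log2 fold change 2.56, edgeR adjusted p = 1.07e-05). The MAP kinase gene *MPK11* (log2 fold change 0.78, edgeR adjusted p = 3.91e-05) and the receptor gene *RLP23* (log2 fold change 0.64, edgeR adjusted p = 2.21e-04) rose less. *WRKY33* stood at 68.7 and 67.2 CPM in *somi2* and 33.3 and 28.8 CPM in *mips1 somi2* (log2 fold change -1.13, standard error 0.078, edgeR adjusted p = 5.18e-07). *MPK3* (log2 fold change -0.55, edgeR adjusted p = 9.33e-05) and *SOBIR1*, a co-receptor kinase (log2 fold change -0.47, edgeR adjusted p = 4.44e-04), were lower as well. The receptor gene *FLS2* fell by 0.20 on the log2 scale, and *BAK1* (0.11) and *RBOHD* (-0.04) did not pass the test. With Col-0 replicate 1 or 2 left out, 6 were up-regulated and 6 down-regulated, and with library size alone as the scaling 7 and 4.

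Among the WRKY factor genes, 63 were tested, of which 17 rose and 10 fell. Some that rose were barely expressed in *somi2*, such as *WRKY67* with 1 count in *somi2* and 101 in *mips1 somi2*, a ratio of 93.2 (95% exact counting interval 16.4 to 3718). *WRKY66*, with 0 and 11 counts in the groups, was at least 3.38-fold higher, and it lost its call when any of the 4 libraries was left out. *WRKY75*, a regulator linked to senescence and phosphate supply, rose by 3.98 on the log2 scale. Of those that fell, *WRKY22* stood at 13.1 and 13.3 CPM in *somi2* and 4.63 and 4.45 CPM in *mips1 somi2* (log2 fold change -1.54, edgeR adjusted p = 2.46e-07), and *WRKY33* and *WRKY70* are given above. The number of up-regulated members was 10 without *somi2* replicate 1, 9 without *somi2* replicate 2, 9 without *mips1 somi2* replicate 1 and 8 with at least 10 counts required in every library. Cysteine-rich receptor-like kinases, a family of defence-induced kinases, also divided, with 12 up-regulated and 9 down-regulated of 37. *CRK36* stood at 1.33 and 1.59 CPM in *somi2* and 7.03 and 7.29 CPM in *mips1 somi2* (log2 fold change 2.30, edgeR adjusted p = 5.00e-09). *CRK39* (log2 fold change 3.61, edgeR adjusted p = 3.13e-05) and *CRK37* (log2 fold change 2.13, edgeR adjusted p = 4.75e-06) also rose, while *CRK10* stood at 55.4 and 56.4 CPM in *somi2* and 31.3 and 32.2 CPM in *mips1 somi2* (log2 fold change -0.82, edgeR adjusted p = 9.45e-07). *CRK41* (-0.79) and *CRK4* (-0.75) were lower too. With at least 10 counts required in every library, 8 were up-regulated. Several of these kinases lie in tandem arrays, and values of near-identical members are uncertain.

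Genes of camalexin and indole glucosinolates moved in both directions. Of 13, 7 were up-regulated and 3 down-regulated, numbers that stayed at 5 to 7 and 2 to 3 under the alternatives. The camalexin enzymes rose, with *CYP71A12* at 0.663 and 0.711 CPM in *somi2* and 5.17 and 5.06 CPM in *mips1 somi2* (log2 fold change 2.90, standard error 0.19, edgeR adjusted p = 3.22e-06) and *CYP71A13* by 1.85 on the log2 scale, beside *PAD3*. *MYB122*, a regulator of indole glucosinolates, was at 0.06901 and 0.0907 CPM in *somi2* and 0.376 and 0.399 CPM in *mips1 somi2* (log2 fold change 2.26, edgeR adjusted p = 2.63e-04). *CYP81F2*, which modifies indole glucosinolates, stood at 8.65 and 8.65 CPM in *somi2* and 2.799 and 2.602 CPM in *mips1 somi2* (log2 fold change -1.68, edgeR adjusted p = 2.60e-08). *MYB51* (log2 fold change -0.57, edgeR adjusted p = 5.47e-05) and *PEN2*, the myrosinase of this pathway (log2 fold change -0.41, edgeR adjusted p = 0.00365), were lower. No member of the aliphatic glucosinolate list was called by edgeR or DESeq2 (0 of 12, with log2 fold changes from -0.26 to 0.22). *CYP83A1*, the most abundant, stood at 403 and 386 CPM in *somi2* and 377 and 370.1 CPM in *mips1 somi2*. Without Col-0 replicate 1 or 2, 2 aliphatic members were up-regulated and 1 down-regulated.

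Detoxification genes rose in part. Of 36 tau and phi glutathione transferases, which conjugate glutathione to foreign and oxidized compounds, 12 were up-regulated and 3 down-regulated. *GSTU4* stood at 1.28 and 1.16 CPM in *somi2* and 21.1 and 21.5 CPM in *mips1 somi2* (log2 fold change 4.12, standard error 0.084, edgeR adjusted p = 8.47e-11). *GSTF7*, whose promoter is shown above, stood at 14.1 and 12.9 CPM in *somi2* and 89.6 and 89.7 CPM in *mips1 somi2* (log2 fold change 2.73, edgeR adjusted p = 1.98e-10). *GSTU3* stood at 0.193 and 0.302 CPM in *somi2* and 3.93 and 4.01 CPM in *mips1 somi2* (log2 fold change 4.00, edgeR adjusted p = 1.73e-09). *GSTU13*, *GSTU18* and *GSTU27* were lower by small steps (-0.42, -0.35 and -0.32), and these numbered 1 without *somi2* replicate 1 or without *mips1 somi2* replicate 1. Neighbouring transferase genes are similar in sequence, which limits the certainty of single members.

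Most genes of endoplasmic reticulum folding rose. Of 17 tested, 11 were up-regulated and 0 down-regulated, with a median log2 fold change of 0.32. *BIP2*, the main luminal HSP70, stood at 115 and 114 CPM in *somi2* and 175 and 159.7 CPM in *mips1 somi2* (log2 fold change 0.55, standard error 0.075, edgeR adjusted p = 2.43e-04). *BIP3*, the stress-induced form, stood at 0.801 and 1.104 CPM in *somi2* and 2.33 and 2.32 CPM in *mips1 somi2* (log2 fold change 1.29, edgeR adjusted p = 4.18e-05). *BIP1* (log2 fold change 0.49, edgeR adjusted p = 8.17e-04) rose by a similar step to *BIP2*, and since *BIP1* and *BIP2* are nearly identical their counts cannot be fully separated. Calnexin *CNX1* rose by 0.34 and the disulfide isomerase *PDIL1-1* by 0.33 on the log2 scale, and the stress sensors *IRE1A* (-0.01) and *BZIP60* (0.11) did not pass the test. In *mips1* against Col-0 all 17 were up-regulated with a median of 2.12, and the interaction called all 17 lower in the *somi2* background. The up-regulated chaperones numbered 5 without *somi2* replicate 1, 4 without *somi2* replicate 2, and 7 without *mips1 somi2* replicate 1 or 2. Among 32 heat shock proteins and factors, 11 were up-regulated and 3 down-regulated. *HSP90.1* stood at 15.2 and 14.04 CPM in *somi2* and 31.3 and 33.2 CPM in *mips1 somi2* (log2 fold change 1.14, edgeR adjusted p = 2.42e-06). *HSFA2*, a heat stress factor, stood at 1.81 and 1.71 CPM in *somi2* and 3.91 and 4.14 CPM in *mips1 somi2* (log2 fold change 1.19, edgeR adjusted p = 4.66e-05), and *HSP17.6A* at 0.373 and 0.363 CPM in *somi2* and 1.103 and 1.18 CPM in *mips1 somi2* (log2 fold change 1.63, edgeR adjusted p = 1.65e-04). *HSFB2A* (-0.50), *HSFC1* (-0.49) and *HSFA8* (-0.37) were lower. Without *somi2* replicate 1, 6 were up-regulated and 2 down-regulated, and *HSFA8* lost its call.

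Jasmonate (JA) genes rose more often than they fell. Of 33, 16 were up-regulated and 1 was down-regulated, with a median log2 fold change of 0.26. *VSP1*, a vegetative storage protein and wound marker, stood at 56.96 and 52.97 CPM in *somi2* and 145 and 145 CPM in *mips1 somi2* (log2 fold change 1.40, standard error 0.084, edgeR adjusted p = 1.35e-07). *PDF1.2*, a defensin that responds to JA and ethylene, stood at 7.798 and 6.24 CPM in *somi2* and 24.8 and 24.2 CPM in *mips1 somi2* (log2 fold change 1.80, edgeR adjusted p = 1.07e-07). *ERF1*, a regulator of that branch, stood at 0.359 and 0.302 CPM in *somi2* and 1.15 and 1.02 CPM in *mips1 somi2* (log2 fold change 1.71, edgeR adjusted p = 1.17e-04). Genes of JAZ repressors, which JA itself induces, divided. *JAZ5* stood at 7.25 and 7.18 CPM in *somi2* and 17.5 and 17.6 CPM in *mips1 somi2* (log2 fold change 1.28, edgeR adjusted p = 4.73e-08). *JAZ10* stood at 7.25 and 7.51 CPM in *somi2* and 18.3 and 17.8 CPM in *mips1 somi2* (log2 fold change 1.29, edgeR adjusted p = 3.04e-07). *JAZ7* was the down-regulated member, at 2.37 and 2.404 CPM in *somi2* and 1.43 and 1.26 CPM in *mips1 somi2* (log2 fold change -0.83, edgeR adjusted p = 0.00163). *JAZ1* was near the threshold (log2 fold change 0.22, edgeR adjusted p = 0.0491), and the lipoxygenase gene *LOX2* (log2 fold change 0.26, edgeR adjusted p = 0.1196) and *AOS* (-0.09) did not pass it. The allene oxide cyclase gene *AOC3* rose by 1.14 on the log2 scale while *AOC1*, *AOC2* and *AOC4* did not pass the test (0.09, 0.05 and 0.15). Of 10 ethylene synthesis genes, *ACS2* rose (0.166 and 0.242 CPM in *somi2* and 0.921 and 1.08 CPM in *mips1 somi2*; log2 fold change 2.29, edgeR adjusted p = 1.07e-05) and *ACS6* fell (63.8 and 59.4 CPM in *somi2* and 18.2 and 18.5 CPM in *mips1 somi2*; log2 fold change -1.75, edgeR adjusted p = 7.10e-09). *ACO1* (log2 fold change 0.36, edgeR adjusted p = 0.0184) was up-regulated and *ACS11* (log2 fold change -1.12, edgeR adjusted p = 0.00217) down-regulated, and *ACS5* (log2 fold change 0.51, edgeR adjusted p = 0.195) and *ACS8* (log2 fold change -0.10, edgeR adjusted p = 0.806) did not pass the test. *ACO1* lost its call without *somi2* replicate 2, *mips1 somi2* replicate 1 or *mips1 somi2* replicate 2.

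**Figure D2:**
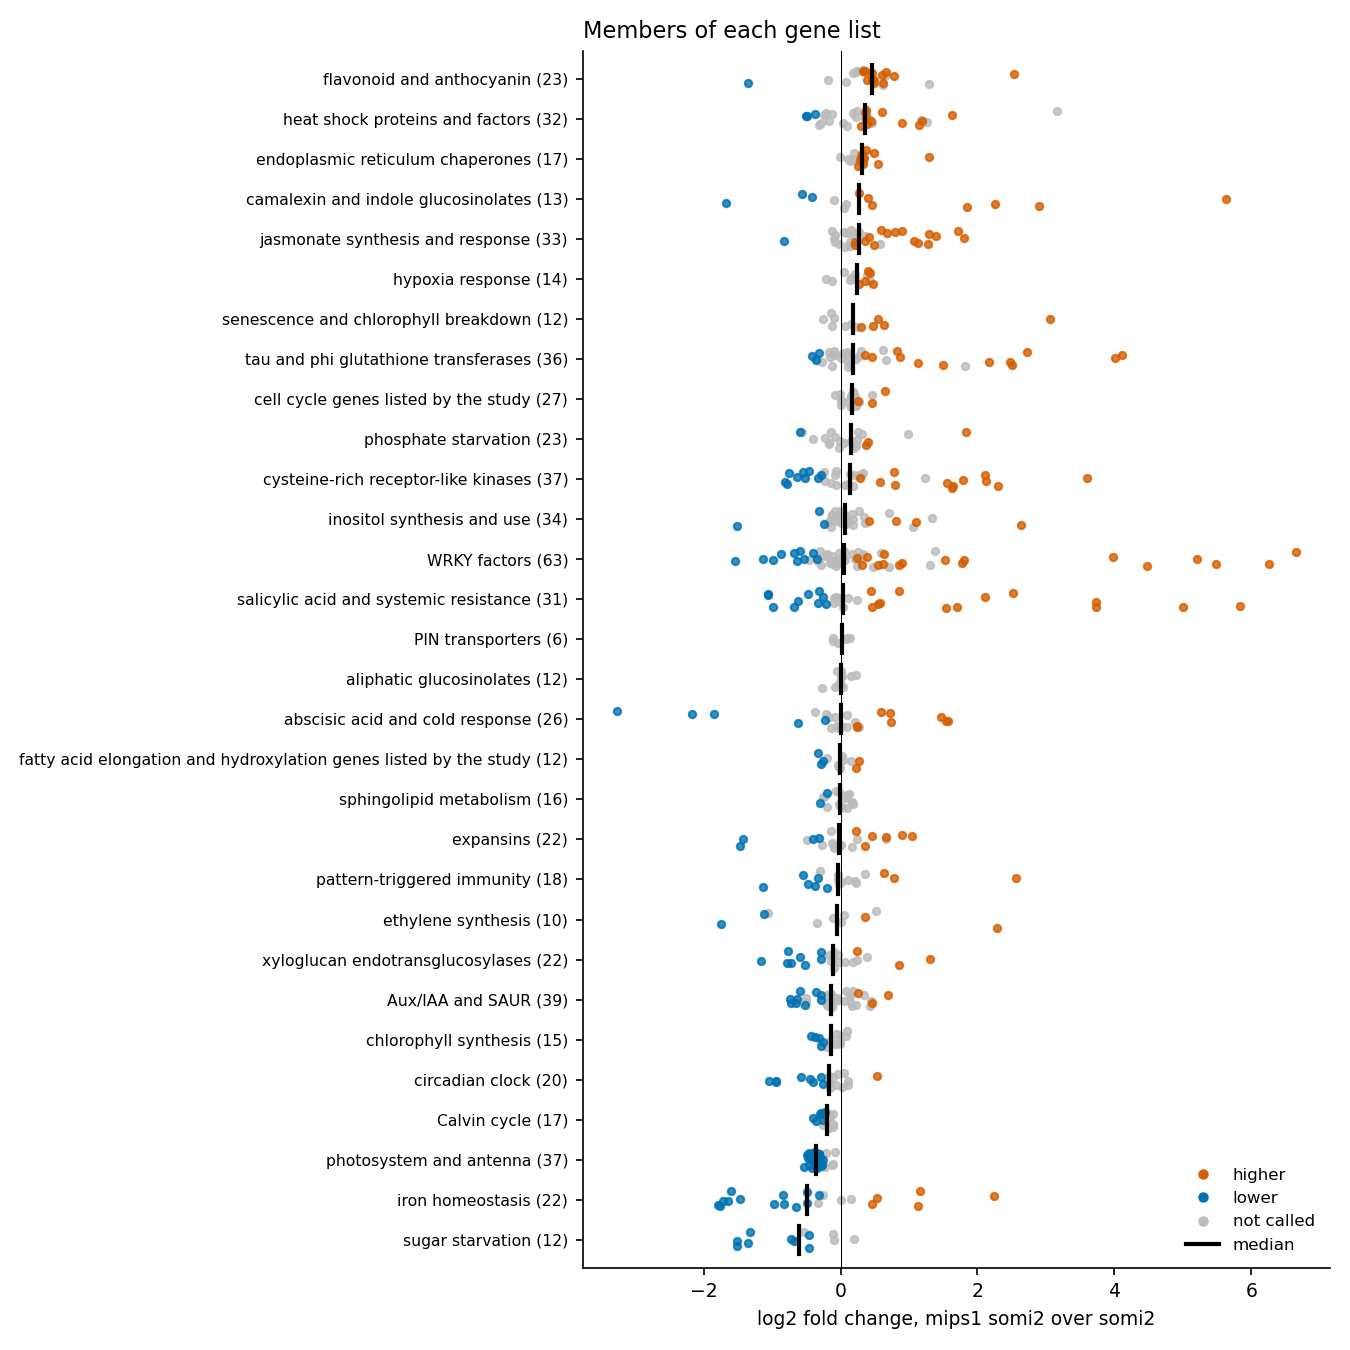
Log2 fold change of *mips1 somi2* over *somi2* for every tested member of 30 gene lists, with the number tested in parentheses; orange points were up-regulated, blue points down-regulated and grey points not called, and the black bar is the median of the list. The lowest median is that of the sugar starvation list (-0.61) and the highest that of the flavonoid and anthocyanin list (0.46), and the SA, WRKY and receptor kinase lists spread to both sides of 0.

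Abscisic acid and cold genes also divided, with 8 of 26 up-regulated and 5 down-regulated. The clade A phosphatase gene *HAI1* stood at 1.21 and 0.756 CPM in *somi2* and 3.09 and 2.68 CPM in *mips1 somi2* (log2 fold change 1.54, edgeR adjusted p = 1.87e-04), *KIN1*, a cold and dehydration gene, at 1.63 and 1.44 CPM in *somi2* and 4.13 and 4.39 CPM in *mips1 somi2* (log2 fold change 1.47, edgeR adjusted p = 1.54e-05), and *LTI65* at 0.0966 and 0.136 CPM in *somi2* and 0.303 and 0.399 CPM in *mips1 somi2* (log2 fold change 1.58, edgeR adjusted p = 0.00942). The cold regulators fell, with *CBF2* at 8.14 and 8.22 CPM in *somi2* and 1.85 and 1.79 CPM in *mips1 somi2* (log2 fold change -2.17, standard error 0.12, edgeR adjusted p = 7.85e-08) and *CBF1* at 1.12 and 0.892 CPM in *somi2* and 0.315 and 0.237 CPM in *mips1 somi2* (log2 fold change -1.85, edgeR adjusted p = 9.66e-05). *CBF1* and *CBF2* are tandem paralogs, and the third member, *DREB1A*, did not pass the test (-0.37). The synthesis gene *NCED3* was lower by a log2 fold change of -0.62, beside *CYP707A3*. Without *somi2* replicate 1 or *mips1 somi2* replicate 2, 4 members were up-regulated, and *LTI65* lost its call in both cases.

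Sugar starvation genes, which are switched on when carbon runs low, had the lowest median of all lists. Of 12 tested, 0 were up-regulated and 8 down-regulated, with a median log2 fold change of -0.61. *DIN10*, annotated as a raffinose synthase family member and a dark-induced gene, stood at 167 and 171 CPM in *somi2* and 60.7 and 58.2 CPM in *mips1 somi2* (log2 fold change -1.51, standard error 0.067, edgeR adjusted p = 1.10e-08). The class II trehalose phosphate synthases *TPS11* and *TPS8* stood at 74.8 and 79.2 CPM in *somi2* and 27.1 and 26.95 CPM in *mips1 somi2* (log2 fold change -1.51, edgeR adjusted p = 7.43e-09) and at 146 and 158 CPM in *somi2* and 60.5 and 58.8 CPM in *mips1 somi2* (log2 fold change -1.35, edgeR adjusted p = 2.34e-08). *SEN1*, another dark-induced gene, was lower by a log2 fold change of -1.32, while *ASN1* (-0.10) and *TPS10* (-0.10) did not pass the test. The direction was opposite with functional *BIG*, where 11 of the 12 were up-regulated in *mips1* with a median of 0.87, and the interaction called all 12 lower in the *somi2* background. Under the alternatives the down-regulated members numbered 8 or 9.

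Clock genes that passed the test were mostly lower, with 8 of 20 down-regulated and 1 up-regulated. The evening-phased genes *PRR5* and *FKF1* stood at 28.2 and 28.1 CPM in *somi2* and 13.8 and 13.6 CPM in *mips1 somi2* (log2 fold change -1.04, edgeR adjusted p = 1.64e-06) and at 17.8 and 18.9 CPM in *somi2* and 9.66 and 9.45 CPM in *mips1 somi2* (log2 fold change -0.94, edgeR adjusted p = 6.37e-07). *RVE1*, a morning MYB factor that acts outside the core loop, stood at 9.79 and 10.02 CPM in *somi2* and 5.22 and 5.09 CPM in *mips1 somi2* (log2 fold change -0.94, edgeR adjusted p = 6.31e-06). *PRR9*, expressed in the morning, was the up-regulated member, at 7.87 and 7.74 CPM in *somi2* and 11.2 and 11.3 CPM in *mips1 somi2* (log2 fold change 0.53, edgeR adjusted p = 0.00334). The core morning genes *CCA1* (-0.16) and *LHY* (-0.18) and the evening gene *GI* (0.11) did not pass the test, and *TOC1* was lower (-0.26). The hour of harvest is not given in the labels, and its part in these values was not tested.

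More iron homeostasis genes fell than rose. Of 22, 5 were up-regulated and 13 down-regulated, with a median log2 fold change of -0.49. The genes of the Ib subgroup of bHLH factors, which are induced by iron shortage, were lower. *BHLH100* stood at 36.3 and 34.5 CPM in *somi2* and 10.97 and 10.6 CPM in *mips1 somi2* (log2 fold change -1.71, standard error 0.095, edgeR adjusted p = 6.53e-08). *bHLH39* stood at 20.4 and 18.9 CPM in *somi2* and 5.65 and 6.003 CPM in *mips1 somi2* (log2 fold change -1.75, edgeR adjusted p = 9.77e-07), *BHLH101* at 12.99 and 12.6 CPM in *somi2* and 3.55 and 3.86 CPM in *mips1 somi2* (log2 fold change -1.79, edgeR adjusted p = 3.84e-05), and *bHLH38* changed by -1.64. The regulators *PYE* (-0.98) and *BTS* (-0.84) and the transporter *OPT3* (-0.82) were lower with them. Of the ferritins, which store iron and are induced by it, all but *FER2* were higher, with *FER1* at 28.9 and 29.1 CPM in *somi2* and 139.7 and 134 CPM in *mips1 somi2* (log2 fold change 2.24, standard error 0.071, edgeR adjusted p = 6.61e-10) and *FER4* at 18.2 and 16.3 CPM in *somi2* and 36.9 and 38.5 CPM in *mips1 somi2* (log2 fold change 1.13, edgeR adjusted p = 1.97e-06). *FER3* rose by 0.45, and *FER2* did not pass the test (0.15). The nicotianamine synthase gene *NAS3* rose (0.704 and 0.605 CPM in *somi2* and 1.41 and 1.55 CPM in *mips1 somi2*; log2 fold change 1.17, edgeR adjusted p = 8.11e-04), while *NAS4* was lower (-0.49). In Col-0 *BHLH100* was at 1.72 and 1.55 CPM and *FER1* at 114 and 122 CPM. The *mips1 somi2* levels lay between those of *somi2* and Col-0 for *BHLH100*, and above Col-0 for *FER1*. In *mips1* against Col-0 12 members were up-regulated and 3 down-regulated, *FER1* by 2.44 with an interaction of -0.19 that did not pass the test (edgeR adjusted p = 0.0965). The counts of this list moved little under the alternatives, with 5 up-regulated in each of them and 11 to 13 down-regulated.

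**Figure D3:**
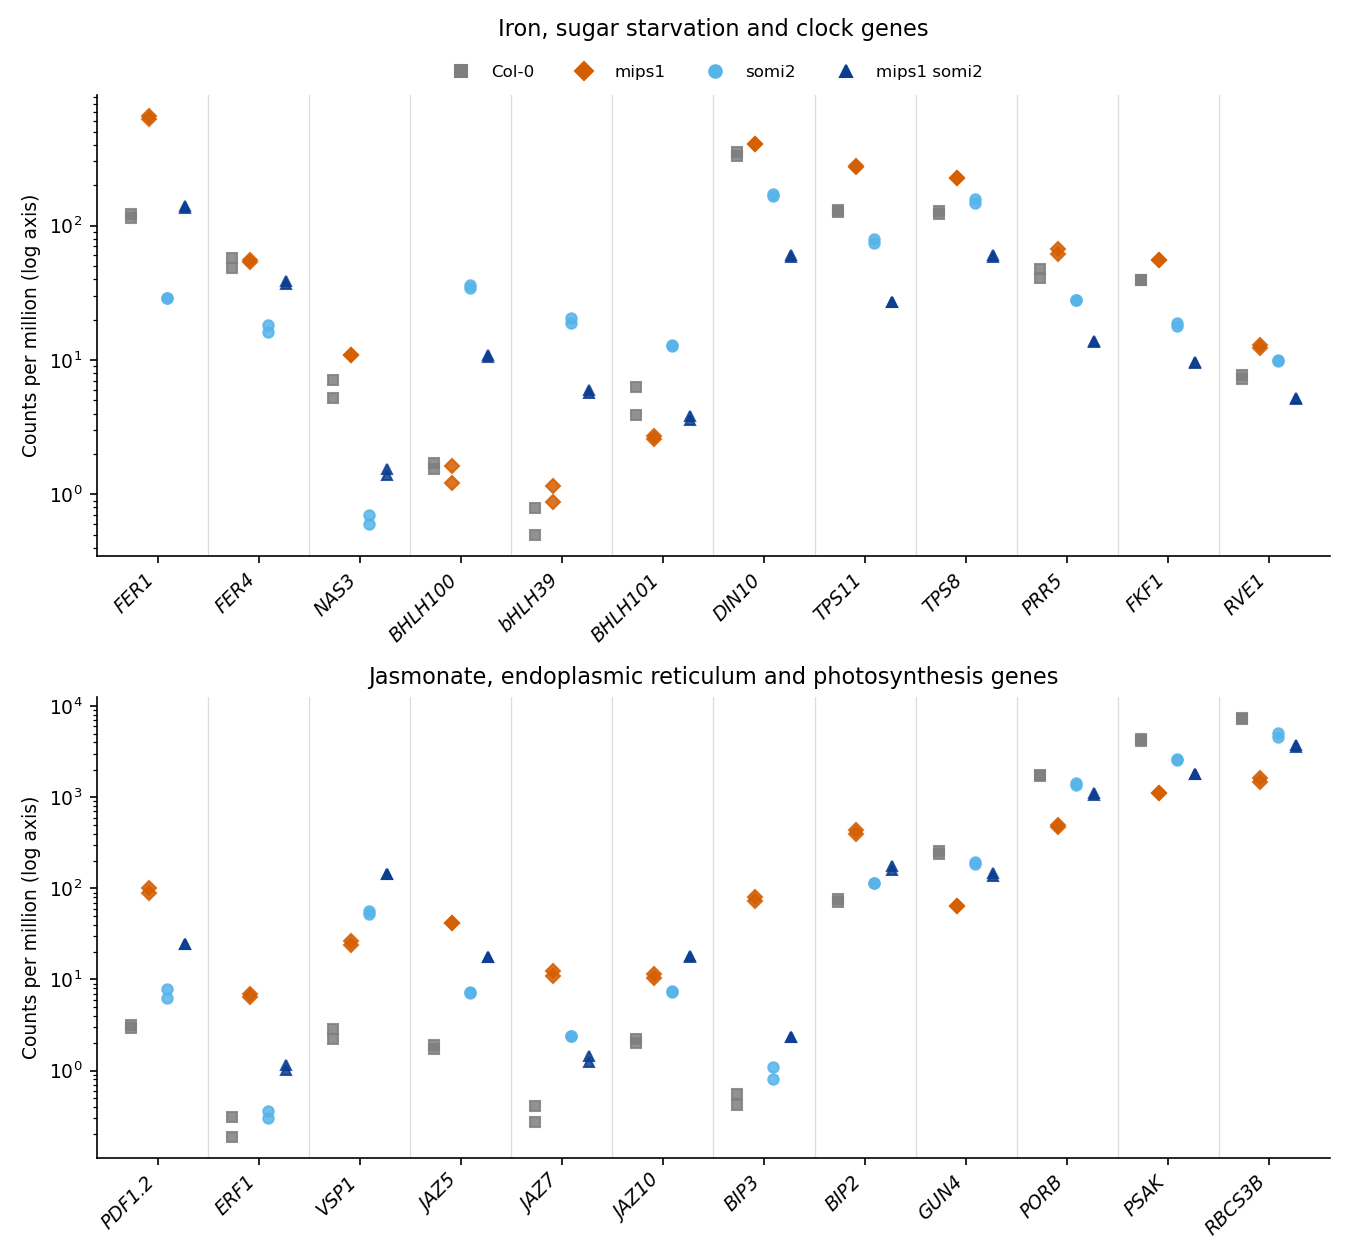
Expression in each of the 8 libraries as CPM on a log axis, with 2 points per genotype and no error bars; the upper panel holds iron, sugar starvation and clock genes, and the lower panel JA, endoplasmic reticulum and photosynthesis genes. *BHLH100*, *bHLH39* and *BHLH101* stood highest in *somi2*, and the photosynthesis genes *GUN4*, *PORB*, *PSAK* and *RBCS3B* stood in the order Col-0, *somi2*, *mips1 somi2* and *mips1*.

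The photosynthesis genes that passed the test were all lower, by small steps. Of 37 nuclear photosystem and antenna genes, 32 fell and 0 rose, with a median log2 fold change of -0.36 and a range from -0.54 to -0.08. *PSAK*, a subunit of photosystem I, stood at 2664 and 2540.1 CPM in *somi2* and 1798 and 1786 CPM in *mips1 somi2* (log2 fold change -0.54, standard error 0.062, edgeR adjusted p = 5.94e-05), and *PSAG* at 2749.9 and 2641 CPM in *somi2* and 2038 and 1835 CPM in *mips1 somi2* (log2 fold change -0.48, edgeR adjusted p = 4.30e-04). Calvin cycle genes showed 7 of 17 down-regulated and 0 up-regulated (median -0.20), with the Rubisco small subunit gene *RBCS3B* at 5064 and 4630.2 CPM in *somi2* and 3784 and 3572 CPM in *mips1 somi2* (log2 fold change -0.40, edgeR adjusted p = 0.00147), *RBCS2B* at a log2 fold change of -0.36 and *GAPA-2* at -0.29. The small subunit genes are near-identical copies, so their separate counts are uncertain. Of 15 chlorophyll synthesis genes, 5 were down-regulated and 0 up-regulated (median -0.13), with *GUN4*, a regulator of magnesium chelatase, at 197 and 184 CPM in *somi2* and 146 and 136 CPM in *mips1 somi2* (log2 fold change -0.43, edgeR adjusted p = 9.01e-04) and *PORB*, a protochlorophyllide reductase, at 1424 and 1375 CPM in *somi2* and 1114 and 1047 CPM in *mips1 somi2* (log2 fold change -0.37, edgeR adjusted p = 0.00191). The 4 mesophyll markers, of which *RBCS1A* and *RCA* are also on the Calvin cycle list, were lower in 3 cases, with the summed levels given above, and their part in these results was not tested. In bulk leaves, fewer cells of a type and less RNA per cell cannot be told apart. These steps are close to the precision of 2 libraries, and fewer genes of each of these lists were called when any compared library was left out. Under the 15 alternatives the median log2 fold change ran from -0.39 to -0.25 for photosystem and antenna genes. It ran from -0.24 to -0.092 for Calvin cycle genes and from -0.17 to -0.023 for chlorophyll synthesis genes. In *mips1* against Col-0 the medians were -1.90, -1.22 and -1.38, and the interaction was called higher in the *somi2* background for 36 of 37, all 17 and all 15.

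Senescence genes were higher where called, with 5 of 12 up-regulated and 0 down-regulated. *SAG13* stood at 3.04 and 2.81 CPM in *somi2* and 25.3 and 23.7 CPM in *mips1 somi2* (log2 fold change 3.06, standard error 0.093, edgeR adjusted p = 4.32e-10). *NAC6* (*ORE1*), a senescence regulator (log2 fold change 0.54, edgeR adjusted p = 3.78e-04), and the STAY-GREEN-like gene AT4G11910 (log2 fold change 0.63, edgeR adjusted p = 0.0189) rose less, and *NYE1* (0.15) and *PPH* (0.23), which act in chlorophyll breakdown, did not pass the test. Without *somi2* replicate 1, *somi2* replicate 2 or *mips1 somi2* replicate 1, 3 were up-regulated, and AT4G11910 was not among them.

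Flavonoid and anthocyanin genes had the highest median, 0.46, with 12 of 23 up-regulated and 1 down-regulated. *MYB113*, an activator of anthocyanin synthesis, stood at 0.732 and 0.635 CPM in *somi2* and 3.33 and 4.67 CPM in *mips1 somi2* (log2 fold change 2.54, edgeR adjusted p = 8.52e-06), and *PAP1* rose by 0.63. *UF3GT*, an anthocyanin glycosyltransferase, stood at 6.72 and 6.89 CPM in *somi2* and 11.2 and 12.2 CPM in *mips1 somi2* (log2 fold change 0.78, edgeR adjusted p = 2.07e-04), and the regulator *TT8* at 2.24 and 1.69 CPM in *somi2* and 2.96 and 3.297 CPM in *mips1 somi2* (log2 fold change 0.67, edgeR adjusted p = 0.0168). The repressor *MYBL2* was the down-regulated member, at 67.5 and 66.5 CPM in *somi2* and 27.5 and 24.9 CPM in *mips1 somi2* (log2 fold change -1.35, standard error 0.073, edgeR adjusted p = 4.82e-08). In Col-0 *UF3GT* stood at 0.0239 and 0.0471 CPM, below both groups of the comparison. Without *somi2* replicate 2, 6 were up-regulated, and without *mips1 somi2* replicate 2, 7. *TT8* lost its call in these cases, without *mips1 somi2* replicate 1 and with DESeq2.

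Genes that make or use inositol, listed without *MIPS1* itself, were called about as often as all genes. Of 34 tested, 4 were up-regulated and 3 down-regulated, which is 20.6% against 19.3% of all genes, and the median log2 fold change was 0.06. *GolS1* and *GolS2*, which make galactinol from myo-inositol, stood at 21.6 and 22.3 CPM in *somi2* and 40.9 and 35.7 CPM in *mips1 somi2* (log2 fold change 0.80, edgeR adjusted p = 1.62e-05) and at 4.39 and 3.98 CPM in *somi2* and 9.41 and 8.52 CPM in *mips1 somi2* (log2 fold change 1.10, edgeR adjusted p = 1.76e-05), and *GolS4* at 0.06901 and 0.0605 CPM in *somi2* and 0.412 and 0.414 CPM in *mips1 somi2* (log2 fold change 2.64, edgeR adjusted p = 1.08e-04). *ABCC5*, a vacuolar transporter of phytate, rose by 0.41, and *DIN10*, described above, is on this list through its raffinose synthase annotation. The phosphatidylinositol synthase genes *PIS1* (log2 fold change -0.24, edgeR adjusted p = 0.0363) and *PIS2* (log2 fold change -0.31, edgeR adjusted p = 0.0156) were lower by small steps and lost their calls with DESeq2, with library size alone as the scaling and when any of the 4 libraries was left out (10 of 15 alternatives for *PIS1* and 6 for *PIS2*). Without any 1 of the 4 libraries *DIN10* was the 1 down-regulated member. With Col-0 replicate 1 or 2 left out, 11 members were up-regulated and 4 down-regulated, and with library size alone as the scaling 10 and 1. The inositol oxygenase *MIOX2* (0.13) and the kinase *IPK1* (-0.05), which acts in phytate synthesis, did not pass the test. Of 23 phosphate starvation genes, 3 were up-regulated and 1 down-regulated, which is 17.4% called against 19.3% of all genes, with *RNS1*, a ribonuclease, at 0.6901 and 0.6198 CPM in *somi2* and 2.23 and 2.45 CPM in *mips1 somi2* (log2 fold change 1.83, edgeR adjusted p = 1.19e-05). *PS2* (log2 fold change 0.40, edgeR adjusted p = 0.0114) and *PPCK1* (log2 fold change 0.37, edgeR adjusted p = 0.001497) rose by small steps and *SPX4* was lower (log2 fold change -0.60, edgeR adjusted p = 0.00216). Without Col-0 replicate 1 or 2, 8 were up-regulated and 2 down-regulated, without *mips1 somi2* replicate 2, 2 and 2, and with library size alone as the scaling 10 and 1. Of 14 hypoxia genes, 5 were up-regulated by log2 fold changes from 0.27 to 0.48, *SUS1* the most. This number was 1 without *somi2* replicate 1 or 2 and 0 without *mips1 somi2* replicate 1 or 2.

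Of 39 tested Aux/IAA and SAUR genes, which auxin induces, 9 fell (23.1% against 10.8% of all genes) and 3 rose (7.69% against 8.46% of all genes). *IAA2* stood at 49.1 and 47.3 CPM in *somi2* and 27.1 and 30.5 CPM in *mips1 somi2* (log2 fold change -0.74, edgeR adjusted p = 1.94e-05) and *IAA6* at 4.62 and 3.9003 CPM in *somi2* and 2.399 and 2.79 CPM in *mips1 somi2* (log2 fold change -0.72, edgeR adjusted p = 0.00153), while *SAUR20* rose (4.24 and 4.505 CPM in *somi2* and 7.14 and 6.96 CPM in *mips1 somi2*; log2 fold change 0.69, edgeR adjusted p = 0.00149). The annotation gives the product of *SAUR21* (AT5G01830), 1 of the 3 up-regulated members, as an ARM repeat protein, and its call was lost in 9 of 15 alternatives, DESeq2 among them. No PIN auxin transporter was called by edgeR or DESeq2 (0 of 6, with 0 of them in edgeR's test at an unadjusted p under 0.05), and *PIN7* stood at 151 and 146 CPM in *somi2* and 148 and 142 CPM in *mips1 somi2*. Without *somi2* replicate 2, 1 Aux/IAA or SAUR gene was up-regulated and 8 were down-regulated, and with library size alone as the scaling 6 and 6. Of 22 expansins, 6 were up-regulated and 4 down-regulated. *EXPA10* stood at 28.5 and 27.4 CPM in *somi2* and 52.8 and 51.1 CPM in *mips1 somi2* (log2 fold change 0.89, edgeR adjusted p = 3.40e-06) and the expansin-like gene *EXLA1* at 35.2 and 35.9 CPM in *somi2* and 12.9 and 13.5 CPM in *mips1 somi2* (log2 fold change -1.43, edgeR adjusted p = 1.50e-08). Without *somi2* replicate 1 the counts were 3 and 3, and without *mips1 somi2* replicate 1, 3 and 2. Of 22 xyloglucan endotransglucosylases, 3 were up-regulated and 8 down-regulated, with *XTH17* at 2.995 and 3.05 CPM in *somi2* and 1.49 and 1.198 CPM in *mips1 somi2* (log2 fold change -1.16, edgeR adjusted p = 6.08e-04) and *XTH10* at 1.26 and 1.36 CPM in *somi2* and 2.31 and 2.395 CPM in *mips1 somi2* (log2 fold change 0.85, edgeR adjusted p = 2.54e-04). With any of the 4 libraries left out, 1 or 2 were up-regulated and 5 down-regulated.

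The study itself lists genes of fatty acid elongation and hydroxylation that were low in *mips1*, and cell cycle genes that were low in *mips1* and high in both *somi2* and *mips1 somi2*. Both lists were chosen on the libraries used here, and the cell cycle list on both groups compared, so their counts are a description and no independent evidence of a direction. A cyclin gene of the study's cell cycle list was left out because its locus and name did not match in the annotation. In the double mutant comparison, 3 of the 27 cell cycle genes kept were up-regulated (11.1% against 8.46% of all genes) and 0 down-regulated. Their median log2 fold change was 0.17, with a range from -0.09 to 0.65. The cyclin gene *cycp3;1* stood at 3.602 and 3.61 CPM in *somi2* and 4.91 and 6.42 CPM in *mips1 somi2* (log2 fold change 0.65, edgeR adjusted p = 0.00924), and *KINESIN-12B*, a phragmoplast motor, at 13.9 and 14.2 CPM in *somi2* and 19.5 and 18.9996 CPM in *mips1 somi2* (log2 fold change 0.46, edgeR adjusted p = 0.0164). *PLE*, a microtubule bundling protein, lay at the threshold (log2 fold change 0.26, edgeR adjusted p = 0.0499), and *CYCD3;1* (log2 fold change 0.22, edgeR adjusted p = 0.0653) and *CDKB2;1* (log2 fold change 0.15, edgeR adjusted p = 0.256) did not pass it. The lowest value was that of *CYCB1;4* (-0.09). With library size alone as the scaling 11 were up-regulated. The number was 0 without *somi2* replicate 1, *somi2* replicate 2 or *mips1 somi2* replicate 2, 1 without *mips1 somi2* replicate 1 and 7 without Col-0 replicate 1 or 2. Of 12 elongation and hydroxylation genes, 2 rose and 3 fell, with log2 fold changes from -0.33 to 0.27. *SBH2*, *FAH1* and *FAH2*, which hydroxylate sphingolipid bases and fatty acids, were lower (-0.33, -0.29 and -0.25), *KCS2* and *KCS5* were higher (0.27 and 0.23), and *KCS1* (-0.19), *CER10* (-0.02) and *PAS2* (0.04) did not pass the test. When any 1 library other than those of Col-0 was left out, 0 were up-regulated and 0 to 3 down-regulated. Of 16 sphingolipid genes, 2 were down-regulated and 0 up-regulated, which is 12.5% called against 19.3% of all genes. These were *SLD1*, a long-chain base desaturase (log2 fold change -0.30, edgeR adjusted p = 0.00744), and *LCB1* (log2 fold change -0.19, edgeR adjusted p = 0.0432). *LCB1* lost its call in 12 of 15 alternatives. Without *somi2* replicate 1, *somi2* replicate 2 or *mips1 somi2* replicate 2 no sphingolipid gene was called, without Col-0 replicate 1 or 2 there were 1 up-regulated and 4 down-regulated members, and with library size alone as the scaling 4 and 0. The ceramide synthase gene *LOH2*, at 9.83 and 10.5 CPM in *somi2* and 10.6 and 11.5 CPM in *mips1 somi2*, did not pass the test (log2 fold change 0.12, edgeR adjusted p = 0.307). In *mips1* against Col-0 *LOH2* rose by 1.56.

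**Figure D4:**
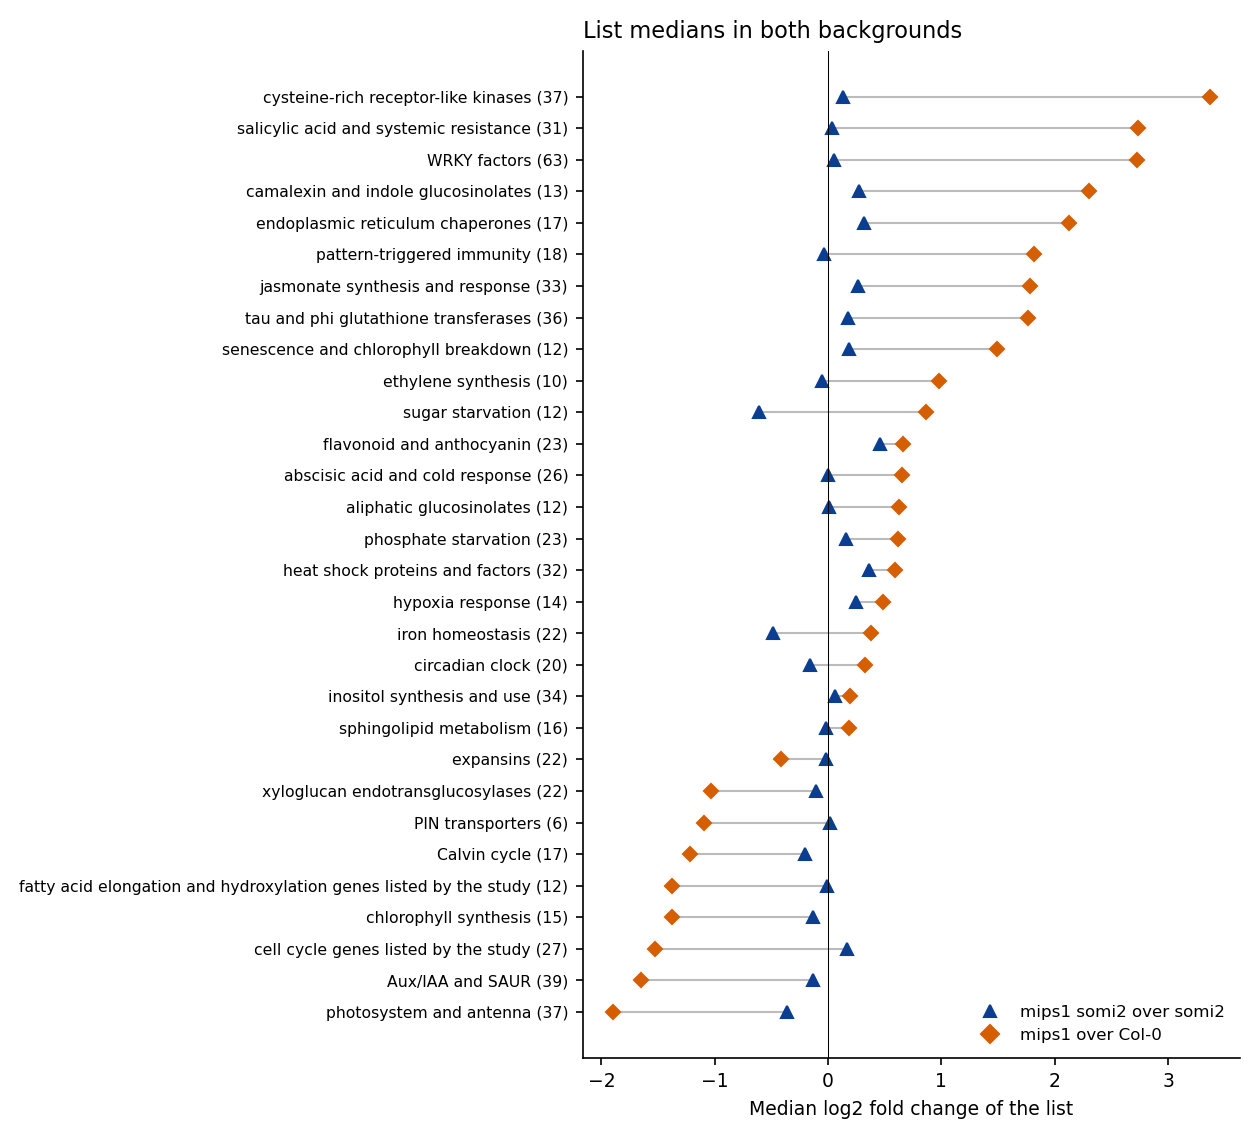
Median log2 fold change of each of 30 gene lists in *mips1 somi2* over *somi2* (triangles) and in *mips1* over Col-0 (diamonds), with the number of genes tested in parentheses; the grey line joins both medians of a list. The medians ran from -0.61 to 0.46 in the *somi2* background and from -1.90 to 3.37 in the *BIG* background, and those of sugar starvation, iron and clock genes lay on opposite sides of 0, as did those of cell cycle genes and of several lists with a median near 0.

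The *mips1* effects in the *somi2* and the *BIG* background share no library and were compared gene by gene. Of the 2023 genes up-regulated in the double mutant, 1416 were also up-regulated in *mips1* (70.0% of the former and 16.5% of the latter, where 36.0% of all genes were up-regulated in *mips1*). Of the 2583 down-regulated genes, 1310 were also down-regulated in *mips1* (50.7% and 14.8%, where 37.1% of all genes were down-regulated). Opposite directions were found for 900 genes that were lower in *mips1 somi2* and higher in *mips1* (34.8% and 10.5%, beside 36.0% of all genes). The reverse was found for 343 genes (17.0% and 3.86%, beside 37.1% of all genes lower in *mips1*). With changes of 1 or more on the log2 scale in both, 468 genes rose in both (87.6% of 534), 54 fell in both, 99 fell in the double mutant and rose in *mips1*, and 3 showed the reverse. The interaction was called for 14840 genes.

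Most of the 534 genes that rose by at least 1 on the log2 scale in the double mutant rose less there than in *mips1*. They were chosen on the double mutant comparison alone, and 468 of them rose by at least 1 in both. The 534 genes had a median of 1.93 in *mips1 somi2* and 5.85 in *mips1*. The interaction called 367 of them lower and 32 higher in the *somi2* background and did not call 135. *PR1* rose by 3.73 against 10.54 in *mips1*, where it stood at 1.03 and 1.06 CPM in Col-0 and 1561 and 1555 CPM in *mips1*. *FMO1* rose by 5.00 against 10.55, and *PAD3* by 5.63 against 8.05. *UGT76B1* rose by 5.83 and 5.80, with an interaction of 0.02 (standard error 0.27, edgeR adjusted p = 0.964). The interaction of *FER1* was not called either, and that of AT1G64795, at 0 counts in both Col-0 and *somi2*, could not be estimated. *FER4* rose in the *somi2* background and not in *mips1* (0.04), with an interaction of 1.09 (edgeR adjusted p = 7.55e-06).

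**Figure D5:**
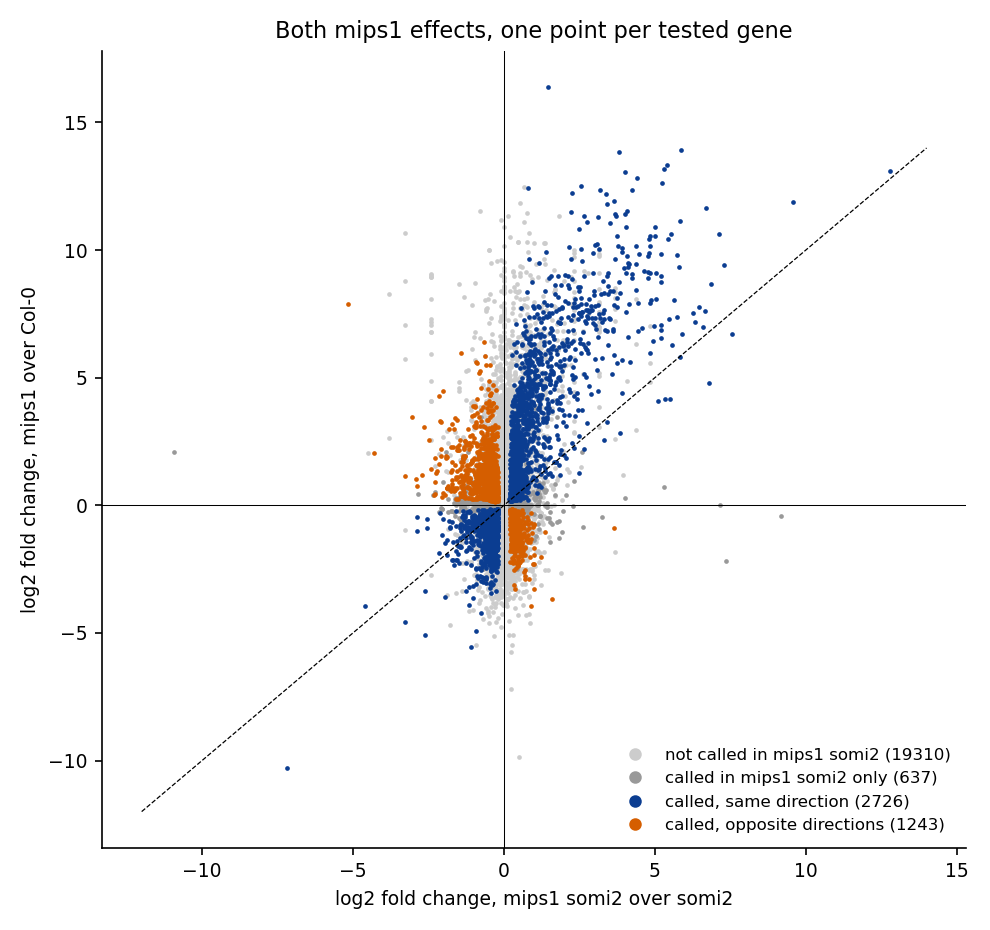
Log2 fold change of *mips1* over Col-0 (vertical) against that of *mips1 somi2* over *somi2* (horizontal), 1 point per tested gene, with the number of genes in each class in the legend and equal changes on the dashed line. Of the genes called in the double mutant, 2726 had the same direction in *mips1* and 1243 the opposite direction; fitted values of genes with 0 counts in a group depend on the prior count and are no measured folds.

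The genes with the largest opposite effects included *CML38* and *NIG1*. *CML38*, a calmodulin-like protein, stood at 4.55 and 4.61 CPM in *somi2* and 2.34 and 2.499 CPM in *mips1 somi2* and at 2.101 and 2.41 CPM in Col-0 and 107 and 117 CPM in *mips1*. It was lower in the double mutant (-0.92) and higher in *mips1* (5.61), and the same held for *ASPGB1*, an asparaginase (-0.65 and 6.39), and *PHI-1*. *NIG1*, a calcium-binding transcription factor, stood at 3.23 and 2.63 CPM in *somi2* and 5.37 and 5.101 CPM in *mips1 somi2* and at 2.75 and 2.62 CPM in Col-0 and 0.377 and 0.346 CPM in *mips1*, which is higher in the double mutant (0.84) and lower in *mips1* (-2.89). *bHLH071*, which acts in the stomatal lineage, had the same directions (0.35 and -3.13), as did *E13L3*, a glucanase-related gene (0.38 and -3.27), *CYP706A3* (0.89 and -3.93) and AT1G06980 (0.71 and -2.89). *CYP706A3* and AT1G06980 lost their calls in the double mutant when any of the 4 libraries was left out, AT1G06980 also with DESeq2, and *E13L3* and *bHLH071* when either *somi2* library or *mips1 somi2* replicate 1 was left out. Among genes lower in both backgrounds, besides *MIPS1*, were AT1G67105 (-2.62 and -5.06) and AT3G05105 (-1.88 and -1.96), both annotated as RNA genes, and AT4G10910 (-2.16 and -1.88).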

How the data were processed

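Messenger RNA of pooled rosette leaves was sequenced as single reads in 2 libraries for each of Col-0, *somi2*, *mips1* and *mips1 somi2*. According to the file header and the paper's methods, the authors trimmed reads with Trimmomatic, mapped them with STAR to TAIR10 and made the deposited raw counts per gene with featureCounts 1.6.3 over Araport11 exons. A read over several genes was counted for each, the minimum mapping quality was 10, and strand was not used, so overlapping and antisense genes are not separated and near-identical copies are uncertain. The deposited exon length of each gene (bases) was read with the counts. The authors' normalized values and their columns of fold changes and p-values were not used.

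Counts were tested with edgeR 4.0.16 in R 4.3.3: TMM scaling, filterByExpr (23916 of 37336 genes kept), a robust quasi-likelihood fit of 4 genotype means over all 8 libraries (4 residual degrees of freedom, common dispersion 0.00726) and Benjamini-Hochberg adjustment over the tested genes, with 0.05 as the threshold. The contrasts were *mips1 somi2* minus *somi2*, *mips1* minus Col-0, and their difference (the interaction). The main test was also run on a simulated set of counts. All libraries were given the *somi2* mean of each gene, and the changed genes were drawn from those without very low counts. The test recovered 63 of 100 genes changed 1.5-fold and 86 of 100 changed 2-fold. Of its 168 calls at the threshold of 0.05, 19 were false, a larger share than 0.05. Far fewer genes were changed than were called in the data, so recovery and false calls may differ there. Gene names, loci and promoters come from RefSeq TAIR10.1, which matched 37051 genes (99.2%).

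The genes named include the mutated genes and those with the largest changes in each direction. The latter needed a mean of at least 50 normalized counts over the 4 compared libraries and no overlap between the groups. Also named are the 3 members of each list with the largest called changes in each direction. The genes with the largest same and opposite effects in *mips1* needed a mean of at least 50 normalized counts over 8 libraries. Other list members were named after their values were seen. The lists and the comparison were chosen with earlier results of these data known. Alternatives were DESeq2 1.42.0, other scalings and filters, the 4 compared libraries alone, a replicate block, a fold change minimum and leaving out each library. Figures were drawn with matplotlib 3.10.9.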

Additional observations from a re-analysis of the deposited data

Results flagged for a closer look

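The effect of *mips1* differed between the *somi2* and the *BIG* background for many genes by the test of the interaction, which called 7377 genes higher and 7463 lower in the *somi2* background. Among them, 900 genes were lower in *mips1 somi2* than in *somi2* and higher in *mips1* than in Col-0, and 343 genes showed the reverse. The 900 are 34.8% of the genes lower in *mips1 somi2*, and 36.0% of all tested genes were higher in *mips1*. The 343 are 17.0% of the genes higher in *mips1 somi2*, and 37.1% of all tested genes were lower in *mips1*. The genes picked for the largest such differences had log2 interactions of -7.38 for AT1G62420, -7.04 for *ASPGB1*, -6.54 for *CML38*, -6.53 for *PHI-1* and -6.49 for AT2G01300. In the other direction they were 4.82 for *CYP706A3*, 3.73 for *NIG1*, 3.65 for *E13L3*, 3.60 for AT1G06980 and 3.48 for *bHLH071*. These 10 genes were selected by this difference, so their values are a description. Of these, *CYP706A3*, *E13L3*, AT1G06980 and *bHLH071* lost their double mutant calls in at least 3 of the 4 fits without 1 of the compared libraries, and AT1G06980 also with DESeq2. Groups of 2 libraries are too small for a check of single libraries that stand apart within a group.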

How the results depend on the processing

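No gene called between *mips1 somi2* and *somi2* was called in the opposite direction under any of the 15 alternatives, but the number of calls moved. Fitting the 4 compared libraries alone gave 7502 calls, of which 3710 were up-regulated, against 4606 and 2023 with all 8 libraries. Scaling by library size alone gave 4172 up-regulated and 1476 down-regulated genes. A minimum change of 1 on the log2 scale left 856 calls (534 up and 322 down), 7550 in *mips1* against Col-0, 7002 for the interaction, and 522 genes with the same and 102 with opposite directions in both *mips1* effects. Leaving out 1 library at a time gave 2089 to 7351 calls, 889 to 3663 up and 1200 to 3688 down, 1235 to 4294 genes with the same and 624 to 2030 with opposite directions in both effects, 208 to 382 called genes among the 731 listed (314 with all libraries), 15676 to 17611 calls in *mips1* against Col-0 and 13101 to 15704 for the interaction. In these fits a lone library was assumed to vary like those of the other groups. DESeq2 called 4029 genes, 3721 of them shared with the 4606. Replicate numbers are shared between genotypes in the labels without a stated meaning, and the deviations of same-numbered *somi2* and *mips1 somi2* libraries correlated at 0.042 across genes. With the replicate number as a block, 4169 genes were called (1814 up and 2355 down). Of 165 called genes that the naming rule gave, 125 kept their call under each alternative that gave an adjusted p and 40 lost it at least once. The interaction could not be fitted with the 4 compared libraries alone. With 2 libraries per group, small changes and transcripts with few counts can be missed.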
